A study of Capra hircus with 2 samples.

Results

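The miR-2284 and miR-2285 family was examined in small RNA of the goat mammary gland, in 1 library of the dry period (D) and 1 library of peak lactation (P). MicroRNAs are short RNAs that guide silencing proteins to messenger RNAs, and the bases near the 5′ end, called the seed, do most of the target recognition. The family was first described in cattle and is known as a large group of closely related miRNAs with many genomic copies in ruminants. A shift of the 5′ end by a single base gives a miRNA a different seed, so that the position of the 5′ end bears on which messenger RNAs are recognised.

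The members were all entries of the study's list of conserved miRNAs whose name begins with miR-2284 or miR-2285. There were 10 of 346 entries, 9 named miR-2284 (a, d, h, j, k, m, s, u and x) and 1 named miR-2285b. A read was given to a member when it was identical to the listed sequence for at least 18 nt from the 5′ end, and to the longest match where several of the 346 sequences matched. No read of the family was tied between entries.

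Mammary tissue came from Xinong Saanen dairy goats, a Chinese milking breed, aged 2.5 years. RNA of 3 goats was pooled for each library, so that the spread between animals was not measured. Clean reads numbered 14851375 in D and 15712891 in P, and reads of all conserved miRNAs made up 61.1% and 14.4% of them. By the study's methods, D was sampled 320 days and P 75 days after lambing. The sample labels swap these days, and the stages here follow the sample titles.

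Levels are reads per 1000000 clean reads (RPM), and intervals are Wilson 95% intervals. Intervals of shares describe the reads of a single library, and intervals of fold changes and p values compare the reads of 2 libraries. All of them cover counting error at most and treat each read as independent. PCR reads without molecular identifiers are not independent molecules, so that the counting error may be larger than shown. At these depths 3 reads corresponded to 0.202 RPM in D and 0.191 RPM in P, which is the upper limit that a count of 0 allows.

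The listed sequences are shown because the members differ from miR-2284x by their start and by single bases. Each runs from 5′ to 3′, and capitals mark the seed, bases 2 to 8. The most abundant member began with a U followed by the seed GAAAAGU.
miR-2284x: uGAAAAGUucguucggguuuuu
Next come 3 members that start 1 base further into this sequence and share the seed AAAAGUU.
miR-2284j: gAAAAGUUcguucagguuuu
miR-2284k: gAAAAGUUcggucggguuuuu
miR-2284m: gAAAAGUUuguucggguuuu
Another 3 members start 2 bases further in and share the seed AAAGUUC.
miR-2284h: aAAAGUUCguucggguuu
miR-2284a: aAAAGUUCguugggguuuuu
miR-2284u: aAAAGUUCguucgguuuuuc
The remaining 3 members each had a seed that no other entry held.
miR-2284d: aAGUUCGUuaggguuuuucu
miR-2284s: cCAAAAGUuuguucggauu
miR-2285b: aAAAUCUGagugaacuuuuug

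The 10 members thus carried 6 distinct seeds, and 0 of the other conserved miRNAs in the list carried any of them. The listed lengths were 18 to 22 nt. The list gives 8 members as products of the 5p arm of the hairpin, and miR-2284u and miR-2285b as products of the 3p arm. The sequence of miR-2284u, however, ran along the same strand as miR-2284x. Placed 2 bases into it, 18 of 20 bases were the same. The reverse complement of miR-2285b matched miR-2284x at 15 of 21 bases.

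Base changes are written as the base of miR-2284x, its position counted from 1 at the listed 5′ end of miR-2284x, and the base found instead. The listed sequence of miR-2284h was identical to positions 3 to 20 of miR-2284x. The members j, k, m, a and d each differed from it by 1 base, at G15A, U12G, C10U, C14G and C14A respectively. Sequences were compared without gaps. miR-2284u differed at G17U and U22C, and miR-2284s, which starts at the same base as miR-2284x, differed at 4 bases, U1C, G2C, C10U and G17A. With a gap allowed, miR-2284u equals miR-2284x from position 3 on with 1 G of GGG left out and a C added. Without gaps, 6 of the other 9 members thus lay within 1 base of a stretch of miR-2284x. The RefSeq goat gene table used here held 5 genes of the family, MIR2284A to MIR2284E, and no hairpin sequences were used.

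One member held nearly all of the reads. In D the family had 39119 reads (2634 RPM, 0.263% of clean reads, interval 0.261 to 0.266%), and in P 11310 reads (719.8 RPM, 0.0720%, interval 0.0707 to 0.0733%). miR-2284x had 37747 of them in D (96.5%, interval 96.3 to 96.7%) and 11002 in P (97.3%, interval 97.0 to 97.6%). miR-2284x ranked 24 among the 338 conserved miRNAs with reads in D and 28 among 307 in P.

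miR-2284h was the only other member with more than 16 reads in either library. It had 1319 reads in D (88.8 RPM, rank 96) and 287 in P (18.3 RPM, rank 116), which was 3.37% and 2.54% of the family's reads. Few of its reads had the listed 18 nt as their whole length, 17 in D and 2 in P. The most frequent tag of miR-2284h was 2 bases longer (540 and 122 reads), and a tag 3 bases longer that ended in C was nearly as frequent (524 and 108 reads).

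The other 8 members had 53 reads in D and 21 in P. miR-2284m had 16 and 5 reads, miR-2284k 15 and 8, and miR-2284j 14 and 6. These were the 3 members with the seed AAAAGUU, and their levels lay near 1 RPM or below it in both libraries. miR-2284d had 3 reads, miR-2284u 2 reads and miR-2284a 1 read in D, with 0 reads each in P. miR-2285b had 2 reads and 1 read, and miR-2284s had 0 reads in D and 1 read in P. For 5 of these members no count was above the limit of 3 reads, so that their presence in only 1 of the libraries (a, d and u in D, s in P) was not a detectable difference at this depth.

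**Figure D1:**
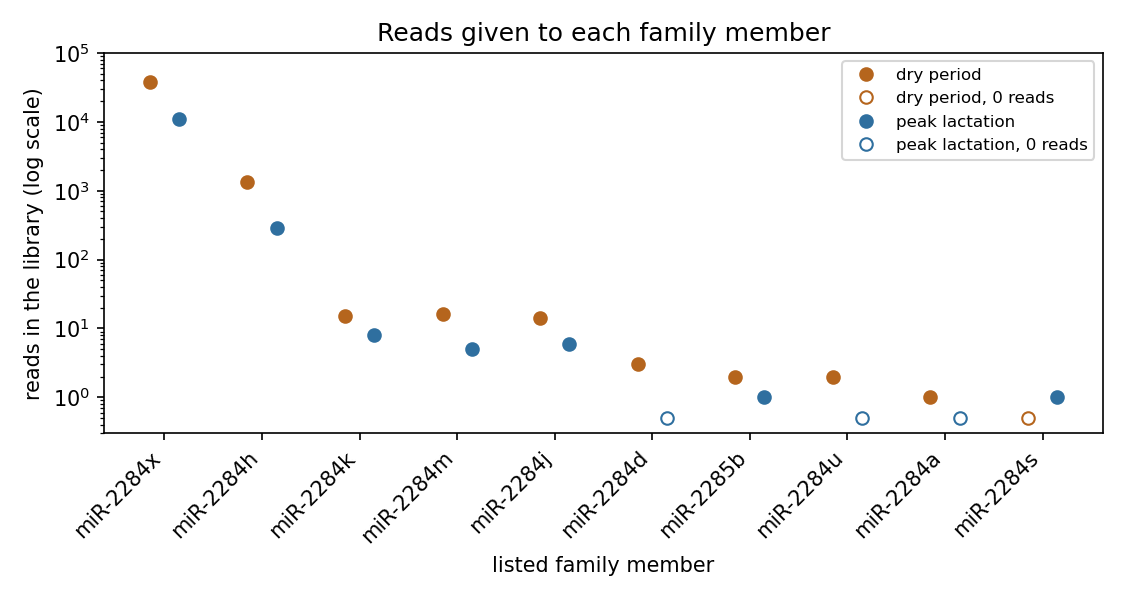
Reads given to each of the 10 listed family members in the D and P libraries, 1 point per library on a log axis, with open points below 1 for a count of 0. miR-2284x had 37747 and 11002 reads, miR-2284h 1319 and 287, and no other member had more than 16.

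Reads with the sequence of miR-2284x did not all start at the same position. Reads that held positions 5 to 20 of miR-2284x were placed by that stretch whatever their start, which found 66118 reads in D (4452 RPM) and 18511 in P (1178 RPM). The listed start, with the listed bases before the stretch, held 37276 reads in D (56.4%, interval 56.0 to 56.8%) and 10904 in P (58.9%, interval 58.2 to 59.6%). A start 1 base later held 26834 reads (40.6%, interval 40.2 to 41.0%) and 7127 reads (38.5%, interval 37.8 to 39.2%). A start 2 bases later, which is the start of miR-2284h, held 1319 reads (1.99%) and 287 reads (1.55%). These 3 starts together held 99.0% of placed reads in both libraries.

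Starts before the listed end were rare. A start 1 base earlier had 19 reads in D and 7 in P, so that nearly all other starts lay inside the listed sequence. No hairpin sequences were used, and whether reads with a later start come from another genomic copy was not tested. Reads whose bases before the stretch differed from the listed ones numbered 663 in D and 185 in P.

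**Figure D2:**
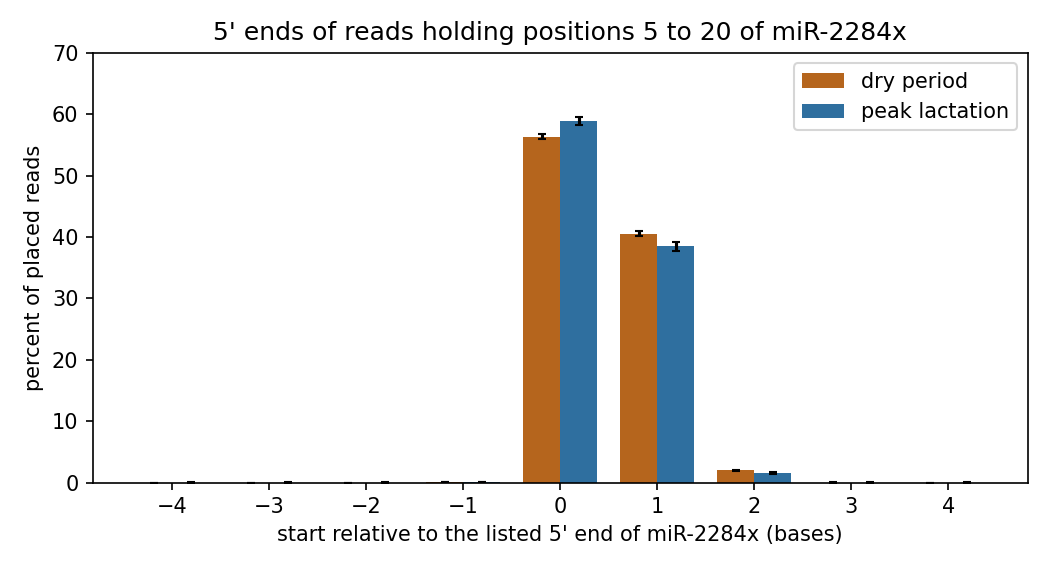
Share of reads holding positions 5 to 20 of miR-2284x by the position of their first base relative to the listed 5′ end, with Wilson 95% intervals as error bars. The listed start (56.4% in D, 58.9% in P) and the start 1 base later (40.6% and 38.5%) hold nearly all reads in both libraries.

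The reads that start 1 base later belonged to no listed entry, because no member of the list has that start without a base change. They outnumbered the reads of miR-2284h, which shares the next start, by far in both libraries. The ratio of reads with this start to reads with the listed start was 0.720 in D and 0.654 in P. The intervals of the share at the listed start did not overlap between the libraries, a difference of the reads of 2 libraries that has no check in other animals. The most frequent forms of the 3 starts are shown because they carry 3 different seeds, again in capitals.
Listed start, 30142 and 8839 reads: uGAAAAGUucguucggguuuuu
Start 1 base later, 12711 and 3192 reads: gAAAAGUUcguucggguuuuu
Start 1 base later with a C at the end, 10785 and 3226 reads: gAAAAGUUcguucggguuuuuc
Start 2 bases later, 540 and 122 reads: aAAAGUUCguucggguuuuu
Start 2 bases later with a C at the end, 524 and 108 reads: aAAAGUUCguucggguuuuuc

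The seeds followed the starts. Over all reads given to the family or placed on miR-2284x (66642 in D, 18630 in P), the seed GAAAAGU of miR-2284x was carried by 57.0% in D and 59.4% in P. AAAAGUU, the seed listed for miR-2284j, miR-2284k and miR-2284m, was carried by 40.5% (interval 40.1 to 40.9%) and 38.5% (interval 37.8 to 39.2%), although those members themselves had 45 and 19 reads. AAAGUUC, the seed listed for miR-2284a, miR-2284h and miR-2284u, was carried by 2.01% and 1.55%. Thus the seed with the second most reads came almost wholly from reads placed on miR-2284x with a start 1 base later. Many of these differed from miR-2284x at their other end too. In D 47.4% and in P 44.8% of them stopped at the listed end, while 40.2% and 45.3% had a C after it.

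The spread of starts was set beside that of all listed miRNAs with at least 1000 reads in the library. In D 105 miRNAs met this minimum, the median share at the listed start was 98.0% (quartiles 95.8 and 98.6%), and 89 had at least 90% of their reads there. miR-2284x was the second lowest of the 105, after miR-2284h, for which 1319 of 66987 placed reads (1.97%) had the listed start. In P 79 miRNAs met the minimum, the median was 98.0% (quartiles 94.9 and 98.6%), 66 had at least 90%, and miR-2284x was the fourth lowest. Shares near that of miR-2284x were found for miR-140 (58.7% in D and 56.5% in P), miR-101 (59.6% and 64.3%) and miR-345-3p (60.9% and 57.4%), so that a mixed 5′ end was uncommon in these libraries but was not particular to the family.

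**Figure D3:**
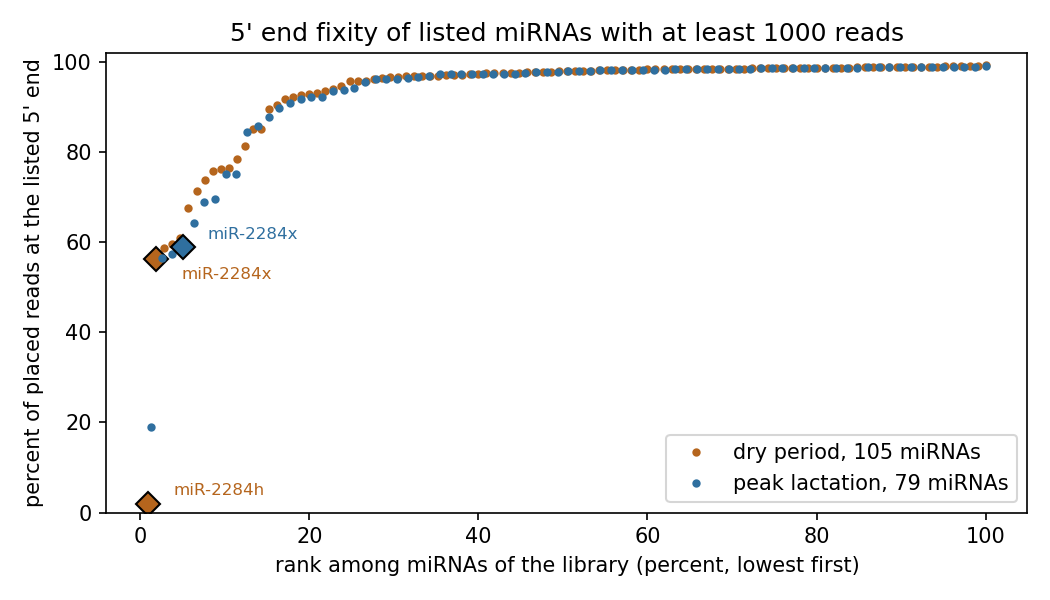
Share of placed reads that start at the listed 5′ end, with the listed bases before the placed stretch, for each listed miRNA with at least 1000 reads in the library (105 in D, 79 in P), in order from the lowest share. Diamonds mark family members, and that of miR-2284h in D rests mostly on the reads placed on miR-2284x. miR-2284x lies at 56.4% and 58.9%, against medians of 98.0% in both libraries.

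The 3′ end differed between the starts. Among reads with the listed start, 80.9% in D and 81.1% in P stopped at the listed end, 7.26% and 7.32% stopped 1 base before it, and 3.97% and 4.37% had a C after it. No hairpin sequences were used, so that a C read from the hairpin and a C added later cannot be told apart here. Among reads that start 1 base later, 47.4% (interval 46.8 to 48.0%) and 44.8% (interval 43.6 to 45.9%) stopped at the listed end, while 40.2% (interval 39.6 to 40.8%) and 45.3% (interval 44.1 to 46.4%) had the C. Reads that start 2 bases later had the C on 39.7% in D and 37.6% in P. A final C was therefore about as frequent as the listed end on reads with a later start and uncommon on reads with the listed start, in both libraries. A U after the listed end was found on 2.04% and 2.06% of reads with the listed start, and an A on 1.93% and 1.85%.

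**Figure D4:**
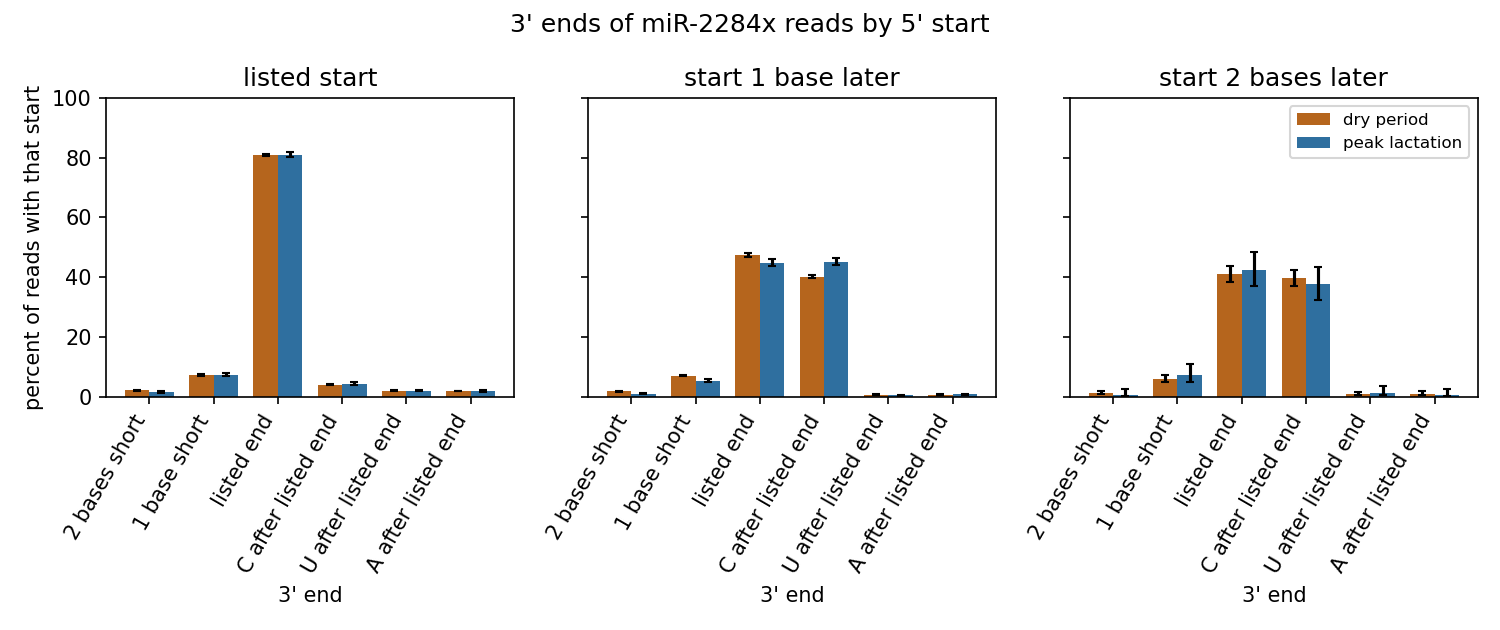
Position of the 3′ end relative to the listed end of miR-2284x for reads of each of the 3 main starts, as a percent of the reads with that start and with Wilson 95% intervals as error bars. Reads with the listed start stop at the listed end in 80.9% (D) and 81.1% (P) of cases, while a C follows it in 40.2% and 45.3% of reads that start 1 base later.

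By length, 81.1% of the reads given to miR-2284x in D and 81.4% in P were 22 nt long, 7.44% and 7.49% were 21 nt and 8.06% and 8.31% were 23 nt. The listed sequence itself made up 79.9% (interval 79.4 to 80.3%) and 80.3% (interval 79.6 to 81.1%). The intervals of D and P overlapped. Reads that start 1 base later and end in C were also 22 nt long, as the listed sequence is. They were fewer than the 21-nt form of that start in D (10785 against 12711 reads) and about as many in P (3226 against 3192).

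The reads of the rarer members were set beside the reads of all single base changes of miR-2284x. Within the first 18 nt, 54 single changes are possible at each start. At the listed start they held 1694 reads in D and 539 in P (4.49% and 4.90% of the reads given to miR-2284x), with a median of 13 reads and 3.5 reads a change. The changes with the most reads there were A6C (450 and 135 reads), U18G (114 and 42) and A6U (110 and 42), and none of these 3 is a listed member.

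At the start 1 base later the 54 changes held 1000 and 305 reads, with a median of 10.5 reads in D and 3 in P. The 3 members at this start are 3 of these changes: miR-2284k (U12G, 15 and 8 reads) ranked 14, miR-2284m (C10U, 16 and 5) ranked 17 and miR-2284j (G15A, 14 and 6) ranked 18 of 54 by reads of both libraries. The change with the most reads at this start, C14U (106 and 79 reads), is the start of 2 of the study's candidate miRNAs described further on. The same changes at the listed start held 11 and 2 reads for U12G, 21 and 15 for C10U, and 15 and 3 for G15A. As a share of the reads of each start in D, U12G made up 0.0555% at the later start and 0.0291% at the listed start. C10U made up 0.0593% and 0.0556%, and G15A 0.0518% and 0.0397%. The counts of these 3 members thus lay above the median change but within the range of the single base changes.

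At the start 2 bases later the median change had 0 reads in both libraries. miR-2284u (2 reads, rank 8) and miR-2284a (1 read, rank 11) were among the 23 changes with reads in D. At the listed start the change of miR-2284a, C14G, had 47 reads in D and 12 in P, and that of miR-2284u, G17U, had 75 and 17. As a share of the reads of each start in D, C14G made up 0.125% at the listed start of miR-2284x and 0.0758% at the start of miR-2284a (1 read), and G17U made up 0.199% and 0.152% (2 reads), which the counts cannot tell apart. When the reads of miR-2284m were placed by its own positions 5 to 20, 16 of 216 in D and 5 of 43 in P had its listed start and its bases before the stretch, and 171 and 26 had that start with 1 base changed there. The reads with 1 base changed include those identical to the candidate novel_mir_34 (78 in D and 11 in P), described further on. That candidate has an A in place of the first G of miR-2284m and otherwise holds its listed sequence.

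Per clean read the family was lower in P (log2 fold change -1.87, interval -1.90 to -1.84), but per read of conserved miRNAs it was higher by 0.21 (interval 0.18 to 0.24). miR-2284x fell from 2542 RPM in D to 700.2 RPM in P, a log2 fold change (peak lactation over dry period) of -1.86 (interval -1.89 to -1.83), whereas per read of conserved miRNAs it was slightly higher in P, by 0.22 (interval 0.19 to 0.25). miR-2284h fell from 88.8 to 18.3 RPM, a log2 fold change of -2.28 (interval -2.47 to -2.10) per clean read and -0.20 per conserved read. Both scales count the same reads, and they differ by the share of clean reads that were conserved miRNAs, which was lower in P by 2.08 on the log2 scale.

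Calls used the study's thresholds, an Audic-Claverie p below 0.01 with an absolute log2 fold change above 1, over miRNAs with at least 1 RPM in 1 of the libraries. Of the 10 members 4 could be tested (h, k, m and x). Per clean read miR-2284x and miR-2284h were called lower and 0 were called higher. The exact Audic-Claverie p of miR-2284h was 4.28e-171 and that of miR-2284x was too small to be represented. miR-2284m had a log2 fold change of -1.76 (interval -3.15 to -0.37, p = 0.0117) and miR-2284k of -0.99 (interval -2.19 to 0.21, p = 0.116), and neither was called.

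A lower level per clean read in P was common to the miRNAs of these libraries. Over all 257 conserved miRNAs tested, 67.7% were called lower per clean read and the median log2 fold change was -1.44, against a median of -1.81 for the 4 members tested. Per conserved read 5.84% of all tested miRNAs were called lower and 33.1% higher, the median was 0.64, and 0 of the 4 members were called in either direction, with a median of 0.27. miR-2284x was number 90 and miR-2284h number 53 of the 257 in order from the lowest fold change. Per clean read 2 of 4 members were called against 67.7% of all tested miRNAs. The share depended on the counting rule. It was 6 of 6 members when the listed sequence could lie anywhere in the read, against 162 of 245 miRNAs in all. That rule gave miR-2284h 32543 reads in D against 1319, mostly reads that start before its listed end. The share was also 2 of 2 with identical tags (153 of 225 in all), but 1 of 3 with 20 nt required (160 of 233).

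**Figure D5:**
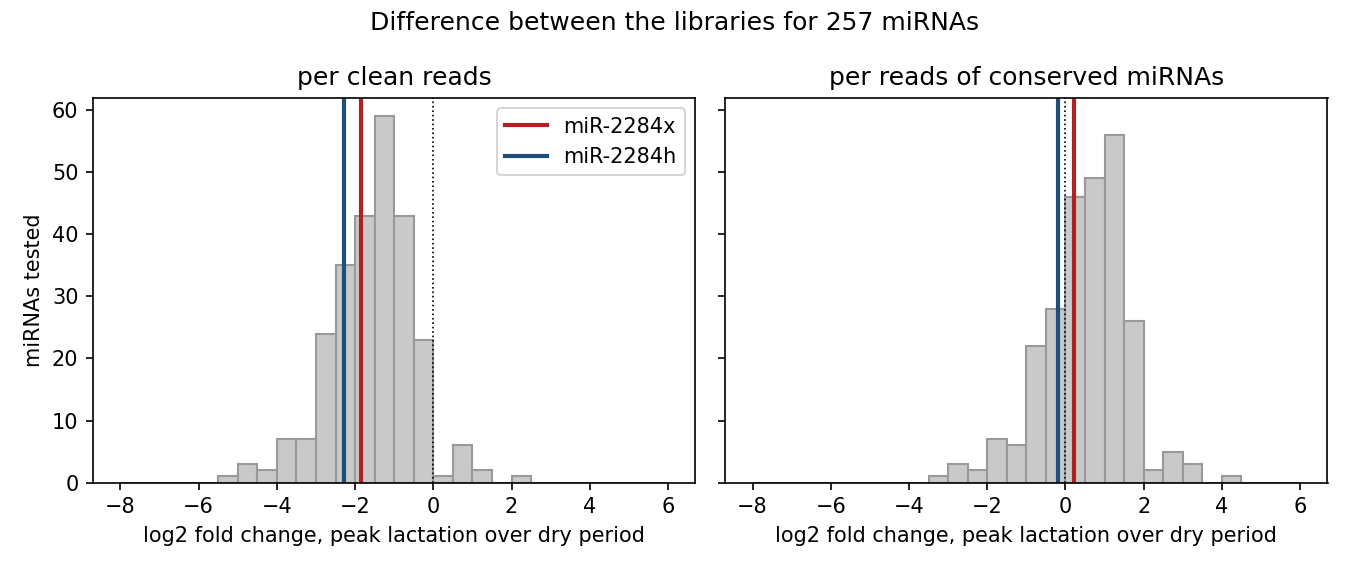
Histograms of the log2 fold change, peak lactation over dry period, of the 257 conserved miRNAs tested, per clean read (left) and per read of conserved miRNAs (right), with vertical lines for miR-2284x and miR-2284h. miR-2284x lies at -1.86 per clean read and at 0.22 per conserved read, against medians of all miRNAs of -1.44 and 0.64, so that its sign depends on the scale.

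Per clean read all forms of miR-2284x were lower in P, while per conserved read the sign differed between starts. Per clean read the log2 fold change was -1.85 (interval -1.89 to -1.82) for reads with the listed start, -1.99 (interval -2.03 to -1.96) for the start 1 base later and -2.28 for the start 2 bases later; per conserved read the same values were 0.23, 0.09 and -0.20. Within the start 1 base later, the 21-nt form that stops at the listed end had -2.07 (interval -2.13 to -2.02) per clean read and the 22-nt form that ends in C had -1.82 (interval -1.88 to -1.77). The difference between these forms does not depend on the scale, and the intervals, which cover read counting only, did not overlap.

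The tissue was a mixture of cell types, and in bulk RNA fewer cells of a type cannot be told apart from less RNA per cell. The summed level of 6 epithelial miRNAs (miR-141, miR-200a, miR-200b, miR-200c, miR-205 and miR-429) was 2687 RPM in D and 1342 RPM in P, with all 6 lower per clean read (miR-141 by less than its counting interval) and all 6 higher per conserved read. The 3 stromal miRNAs (miR-145, miR-199a-3p and miR-214) summed to 13302 and 1779 RPM, with all 3 lower on both scales. That direction holds for these 3 and depends on which miRNAs are listed. Outside the list, miR-143 was lower per clean read but higher per conserved read (log2 fold change 1.23), whereas miR-199b was lower on both scales. The 4 muscle miRNAs (miR-1, miR-133a, miR-133b and miR-206) summed to 7241 and 3847 RPM, with all 4 lower per clean read and 3 higher per conserved read. Nearly all of this sum was miR-1 (7175 RPM in D and 3835 RPM in P). The 3 red blood cell miRNAs (miR-144, miR-451 and miR-486) summed to 110 and 190 RPM, with 0 lower on either scale (miR-486 was higher per clean read by less than its counting interval). All 16 markers had reads in both libraries. Their part in the family's difference between D and P was not tested.

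The study's list of candidate goat miRNAs, predicted from hairpin structures, held 94 entries as read here, slightly fewer than the number the paper states. Of these, 36 (38.3%) held a stretch within 1 mismatch of AGUUCGUU, found in the 5p-type members, or of GAACUUUUU, found in miR-2285b, on the listed strand, against 12 of the 346 conserved entries (3.47%), which were the 10 members, miR-148a and miR-375. The stretches were 5p type in 21 candidates and 3p type in 15. The 36 candidates carried 17 distinct seeds. Of all candidates, 10 shared the seed AAAAGUU with miR-2284j, miR-2284k and miR-2284m, and 5 shared AAAGUUC with miR-2284a, miR-2284h and miR-2284u. The match of so short a stretch is a description of the sequence and not evidence of a shared origin.

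Identical reads of the 36 summed to 579 in D and 206 in P, from 3 to 91 a candidate over both libraries. Under the 18-nt rule used for the members some had more: novel_mir_17, which begins with the whole of miR-2284h, took the same 1319 and 287 reads as that member, novel_mir_79 had 431 and 66, and novel_mir_34 had 179 and 27. The 5 with the most identical reads are shown, with seeds in capitals.
novel_mir_41 (3p type, 75 and 16 reads): aAAAACCCagaugaacuuuuuu
novel_mir_34 (5p type, 78 and 11 reads): aAAAAGUUuguucggguuuua
novel_mir_18 (5p type, 58 and 20 reads): aAAAAAGUuuguuuggauuuuu
novel_mir_35 (5p type, 35 and 32 reads): gAAAAGUUcguuuggguuuuc
novel_mir_26 (5p type, 37 and 28 reads): gAAAAGUUcguuuggguuuu

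Both novel_mir_35 and novel_mir_26 begin with the change C14U at the start 1 base later, and the sequence of novel_mir_26 is the first 20 nt of novel_mir_35. Their log2 fold changes per clean read were -0.21 (interval -0.90 to 0.47) and -0.48 (interval -1.18 to 0.22), intervals that hold 0 and lie above the interval of the unchanged reads with the same start (-2.03 to -1.96). novel_mir_34 had -2.91 (interval -3.80 to -2.01), novel_mir_41 -2.31 (interval -3.08 to -1.54) and novel_mir_18 -1.62 (interval -2.34 to -0.89). The paper names novel_mir_35 as specific to 1 of the libraries, and reports a weak level in the dry period by qRT-PCR. In the reads counted here, both libraries held tags identical to novel_mir_35, with 35 reads in D and 32 in P. Of the 29 candidates with reads in both libraries, 28 were lower in P per clean read (median -1.62), but 20 were higher per conserved read (median 0.47).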

How the data were processed

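Small RNA libraries of D (dry period) and P (peak lactation) were sequenced by the authors with Solexa technology, and the deposited tables give each unique tag with its counts of clean reads, without normalization or alignment. Before deposit, the authors removed low-quality reads, reads with adaptor faults, without an insert or with poly(A), and reads under 18 nt. The counts of a tag were summed for each of the 346 listed conserved miRNAs by the 18-nt rule. Listed and candidate sequences were taken from the study's supplementary lists, and no values were taken from them. Zero counts were set to 0.01 RPM. Differences between D and P were tested with the exact Audic-Claverie probability (doubled smaller tail) on the reads as counted, whereas the formula in the study's methods is stated for normalized levels. The interval of a fold change was derived from how its reads split between D and P, by Wilson's method.

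The members, the marker lists and the rule for named sequences were chosen with earlier results of these data known. The rule named all members, the 5 related candidates, the 3 single base changes at the listed start and the 3 starts with the most reads; the change at the later start and the unlisted sequences were named after their values were seen. Alternatives covered the counting rule, the scale, filters, the test and the placed stretch, with edgeR 4.0.16 for TMM factors and, under R 4.3.3, DESeq2 1.42.0 for size factors. Other steps ran in Python 3.11.15 with scipy 1.17.1, numpy 2.4.6 and, for plots, matplotlib 3.10.9. Both counting and calling were checked on simulated data for 317 miRNAs. All 317 counts were recovered, and 100 of 100 changed miRNAs were called and 0 of 217 unchanged ones. That check covers the working of the code only. It gives no error rate for calls in the real libraries, because the spread between animals was not measured. Names and gene symbols of the family were also looked up in a RefSeq goat gene table, without coordinates.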

Additional observations from a re-analysis of the deposited data

Results flagged for a closer look

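Among tags given to no listed miRNA, 1 sequence of the 3p type stood out by its number of reads and by the difference between the libraries. It was looked for among tags that hold GAACUUUUU, and it was singled out after its values were seen. Tags that share its first 20 nt had 475 reads in D (32.0 RPM) and 3 reads in P (0.191 RPM), a log2 fold change of -7.39 (interval -8.95 to -5.83) per clean read. The most frequent tag, with 280 and 2 reads, is shown with bases 2 to 8 in capitals.
Unlisted 3p-type tag: aAAAAACCgagugaacuuuuug
It had more reads in D than 8 of the 10 listed members together (53 reads). The difference rests on 1 library of 3 pooled goats a stage and has no check in other animals.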

How the results depend on the processing

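With 1 library a stage no library could be left out, and no paired analysis was possible because each stage has a single library. The scale decided the stage result. miR-2284x had a log2 fold change of -1.86 per clean read, 0.22 per conserved read, -0.56 with TMM factors and -0.46 with DESeq2 size factors, and the medians of all 257 miRNAs on these scales were -1.44, 0.64, -0.14 and -0.04. The number of members called lower was 2 per clean read and 0 on each of the other 3 scales. It was 1 of 3 tested with 20 nt required from the 5′ end (160 of 233 miRNAs in all), 6 of 6 with containment at any offset (162 of 245), 5 of 5 with 1 mismatch allowed (180 of 264), 3 of 3 with tags of at least 2 reads (169 of 246, miR-2284m added) and 2 of 2 with identical tags (153 of 225). The number called higher was 0 in every setting.

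The family level and the mix depended on the counting rule. The family had 2634 and 719.8 RPM in D and in P, 2032 and 562.9 RPM with identical tags, 2513 and 695.2 RPM with 20 nt, 4439 and 1177 RPM with containment, 2769 and 757.3 RPM with 1 mismatch, and 4487 and 1186 RPM when reads placed at any start were added, which was chosen after seeing the data. In the same order of rules miR-2284x held 99.9%, 99.9%, 50.4%, 95.9% and 99.9% of family reads in D, and 99.9%, 99.8%, 53.0% and 99.9% in P with the mismatch rule left out, which moved the share there by less than its interval. With containment miR-2284h had 32543 and 8632 reads and miR-2284x 33240 and 9803. miR-2284x fell between -1.84 and -1.92 per clean read under every counting rule.

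The share at the listed start was 55.2% and 57.3% when positions 8 to 22 were used, and 19.3% and 23.0% of unique tags. The listed sequence was 1.59% and 2.27% of unique tags of miR-2284x, because each tag then counts once whatever its reads. Depth limits the rarer members, 5 of which had at most 3 reads in each library.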

Other observations

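Beyond the lists of the study, the libraries held other tags with the stretches of the family. Tags given to no listed miRNA, and more than 1 base from miR-2284x, were grouped by their first 20 nt. Groups with at least 10 reads over both libraries numbered 23 of the 3p type (1005 reads in D and 363 in P) and 9 of the 5p type (713 and 124 reads). Some of these are tags of the study's candidates. Of the 22 groups of the 3p type with reads in both libraries, 18 were lower in P per clean read (median log2 fold change -1.28), but 17 were higher per conserved read (median 0.81). Of the 8 groups of the 5p type with reads in both, 8 were lower per clean read (median -2.42), and 4 were lower per conserved read (median -0.34).

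The groups below had the most reads in each type after the sequence described above, and were chosen after their values were seen. Each is shown by its most frequent tag, with bases 2 to 8 in capitals.
3p-type tag: aAAAAAACaaaugaacuuuuu
5p-type tag, A start: aAAAAGUUcguuuggguuuuu
5p-type tag, AAU start: aAUAAGUUcguuuggguuuuu
5p-type tag, C start: cAAAAAGUucguuuggguuuuu

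The 3p-type group had 88 reads in D and 147 in P, so that it was higher in P on both scales, by 0.66 per clean read (interval 0.28 to 1.04). The 5p-type group with the A start had 417 and 65 reads, a log2 fold change of -2.76 per clean read, shared its first 20 nt with the candidate novel_mir_79, and carried the seed AAAAGUU of miR-2284j, miR-2284k and miR-2284m. It had more reads in each library than those 3 members together (45 and 19). The AAU group had 127 and 10 reads (-3.75 per clean read) and the C group 81 and 30 reads (-1.51 per clean read). The groups of the family's stretches thus ranged from a log2 fold change of -7.39 to 0.66 per clean read among those named. The 2 scales differ by 2.08, so that the C group was lower in P per clean read but higher per conserved read.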
